A study of Mus musculus with 6 samples.

Results

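The cytoplasmic ribosomal protein genes were followed in the cerebral cortex of Cux2 knock-out and control mice. A gene was included where its name on the array was that of a large-subunit (Rpl), small-subunit (Rps) or stalk (Rplp) protein, and ribosomal S6 kinases and clone names were left out. This gave 81 genes among 27671 named genes, read by 135 probes, of which 31 belong to the small subunit, 49 to the large subunit, and Rps19bp1 encodes a partner of Rps19. The study compared total RNA of dissected cortex from 3 samples labelled ko with the genotype Cux2-/- (samples 53, 48 and 54) and 3 controls (samples 15, 62 and 16), all labelled male, with 1 array per sample. The controls are titled WT but carry the genotype label Cux2+/-, and the labels do not settle which holds, so they are called controls. Age, strain and the design of the Cux2 allele are not given in the sources used here. Nothing in the labels states that every sample came from its own animal, and p-values thus cover only the spread among these 6 arrays.

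The ribosome translates mRNA into protein, its small subunit reading the message and its large subunit joining amino acids. Ribosomal proteins are needed in matched amounts, and their mRNAs are among the most abundant in the brain as in other tissues. Most of these mRNAs start with a run of pyrimidines (the 5′ terminal oligopyrimidine tract), through which the mTOR pathway controls their translation. Several members have a paralogue, and in mouse Rpl22 protein is known to bind the Rpl22l1 mRNA and hold it low. Ribosomal protein genes also have many processed pseudogenes, so a probe may read more than its own gene, which could not be checked here because the probe sequences were not used. Cux2 itself encodes a homeodomain factor of upper-layer cortical neurons.

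The start regions of 5 members are shown because results below turn on Rpl22l1, Rpl22 and Rps19, and Rps18 and Rpl13a are common reference genes. Each sequence covers 45 bases before and 15 bases after the annotated start in RefSeq on GRCm38.p6, 5′ to 3′ on the gene's strand, with the first 10 transcribed bases in capitals. The windows lie at chr3:28805463-28805522 (plus strand, Rpl22l1), chr4:152325681-152325740 (plus strand, Rpl22), chr7:24884547-24884606 (plus strand, Rps19), chr17:33955651-33955710 (minus strand, Rps18) and chr7:45128731-45128790 (minus strand, Rpl13a).
Rpl22l1: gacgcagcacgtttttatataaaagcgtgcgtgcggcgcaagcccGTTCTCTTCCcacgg
Rpl22: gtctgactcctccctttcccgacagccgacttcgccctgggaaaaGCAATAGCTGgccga
Rps19: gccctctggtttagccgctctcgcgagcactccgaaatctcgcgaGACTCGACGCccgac
Rps18: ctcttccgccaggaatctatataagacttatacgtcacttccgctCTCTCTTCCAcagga
Rpl13a: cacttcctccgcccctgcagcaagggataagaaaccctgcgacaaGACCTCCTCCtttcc
The capitals of Rpl22l1 and Rps18 each hold 9 pyrimidines of 10, those of Rpl13a hold 8, those of Rps19 hold 5 and those of Rpl22 hold 4.

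RefSeq promoter windows from 250 bases before to 50 after the start were matched for 61 of the 81 genes and for 17492 protein-coding genes in all. The letters CGGAAG, the core of ETS-factor sites, stood on either strand in 41 of 61 member windows (67.2%), against 21.5% of all windows. The letters AANATGGC, from the YY1 site, stood in 11 (18%) member windows and in 6.69% of all windows. TATAAA stood in 6 member windows (9.84%), that of Rpl22l1 among them, and in 13.3% of all windows. Overlaps between matches were not counted. At least 8 pyrimidines among the first 10 transcribed bases were found in 21 of 61 members (34.4%), against 7.89% of all genes. The annotated start was a C in 21 members (34.4%), against 13.7% of all genes. These are descriptions of letters in a window, and an annotated start can lie some bases from the start in use.

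Values are log2 of the background-subtracted spot signal minus the array's own 75th percentile, so 0 is the signal at that percentile. Each gene is given by its brightest probe, and values follow the order of samples 53, 48, 54 and 15, 62, 16. Between 58.5% and 68.1% of probes were well above background on the ko arrays, and between 62.7% and 72.7% on the control arrays. No spot was saturated, and the number of arrays, 3 and 3, limits the precision. Slide 1 held ko 48, ko 54 and control 15, and slide 2 held ko 53, control 62 and control 16. The Cux2 probe read −0.04, −0.05 and −0.01 in ko samples, against −0.03, 0.27 and 0.03 in controls, a difference of −0.12 (SE 0.10, limma, adjusted p = 0.838), with overlapping groups. The sources used here do not place that probe in or outside the deleted stretch, so it is no check on the labels. Of the neuron markers found on the array, 12 of 13 upper-layer and 11 of 11 deep-layer ones had enough signal to be tested. So had 10 of 10 striatal and 8 of 8 choroid plexus markers, so these counts are no check on the cortex label.

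No ribosomal protein gene passed the test between ko and control cortex. Of 81 genes, 0 had an adjusted p under 0.05 in limma, where 0.128% of the 17125 genes tested did, and the lowest adjusted p of a member was 0.607 (Rps19). The differences were small and mostly of the same sign. By value 74 members were lower and 7 higher in ko, against 51.8% of all genes lower, and the median difference was −0.10, against −0.01 over all genes and −0.03 over 2130 other genes of like brightness. At an unadjusted p under 0.05, 1 member was lower (4.38% of all genes) and 0 were higher (3.89% of all genes). The groups did not overlap for 5 members with every ko sample below every control, where 7.25% of all genes had this order, and for 1 member with every ko sample above, where 6.38% did. The sign of the median depends on the scaling: with no scaling between arrays it was 0.08, with 70 of 81 members above 0. The median of all genes was then 0.17, so members stood 0.09 lower than all genes. Scaling subtracts 1 value per array from every probe, so that gap stays almost unchanged by construction. It is thus no separate check on the shift.

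**Figure D1:**
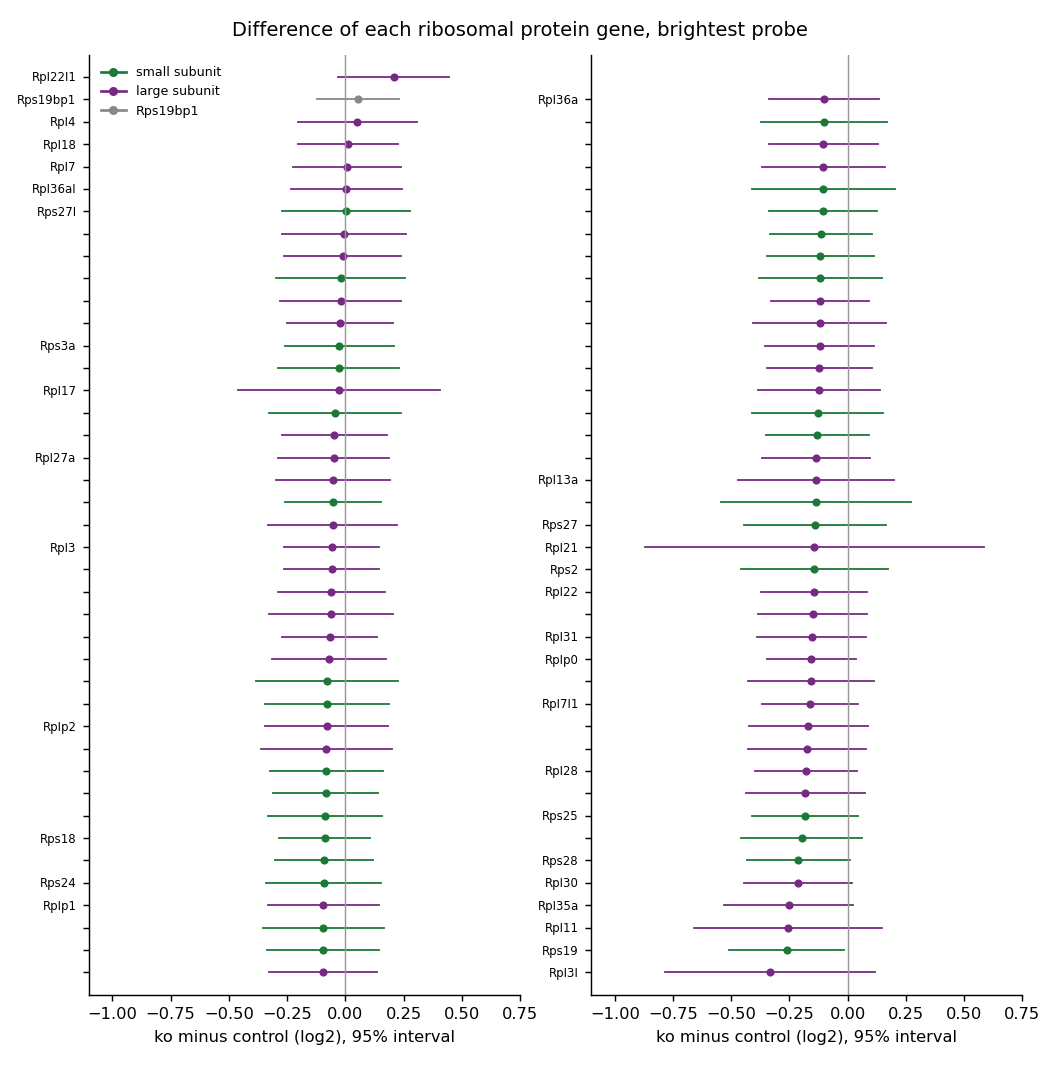
Difference of each of the 81 genes, ko minus control, on the log2 scale (x axis), with its 95% interval from limma, genes in order of difference down the 2 panels, colour marking the subunit and names given for the genes described in the text. Most points lie between −0.20 and 0, and only the interval of Rps19 leaves out 0.

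The intervals bound what these arrays could show. For 78 of 81 members the 95% interval of the difference lay within 1.5-fold either way. The exceptions were Rpl21, Rpl3l and Rpl11. The small subunit had a median difference of −0.10 over 31 genes, 30 of them lower by value. The large subunit had a median of −0.10 over 49 genes, 44 of them lower by value.

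The members moved together by array, and the controls were farther apart than the ko samples. Set against each gene's own mean over the arrays, the median over members was −0.09, −0.01 and −0.04 on the ko arrays 53, 48 and 54, against 0.11, 0.16 and −0.12 on the control arrays 15, 62 and 16. Control 16 thus had the lowest median of all 6 arrays, and the other 2 controls had the highest. Of the members, 80 were above their own mean on control 62 and 75 on control 15, but 3 on control 16. Control 62 gave the highest value for 54 members and control 15 for 21, whereas control 16 gave the lowest for 44 and ko 53 for 22. The range of the member median was 0.0738 among ko samples and 0.280 among controls.

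**Figure D2:**
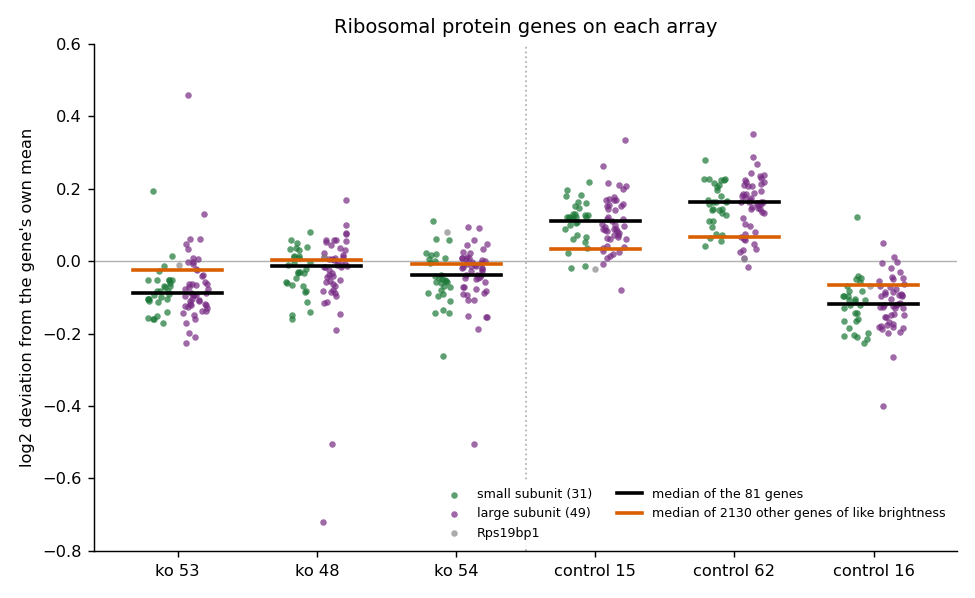
Deviation of each member from its own mean over the arrays (y axis, log2) on the 3 ko and the 3 control arrays, 1 point per gene, with the median of the 81 members and of 2130 other genes of like brightness as bars. Members lie high on controls 15 and 62 and low on control 16, and the other bright genes follow the same order over the controls with a smaller range.

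Other genes of like brightness followed the same order over the controls, with medians of −0.02, 0.00 and −0.01 on the ko arrays and 0.03, 0.07 and −0.06 on the control arrays. Their range over the controls was 0.132. They were matched by range only, with a median level of 4.06, against 5.75 for members. On controls 15, 62 and 16, 322 other genes between 5 and 6 had medians of 0.04, 0.08 and −0.08. For 116 genes between 6 and 7 these were 0.04, 0.10 and −0.08, and for 36 genes above 7 they were 0.01, 0.18 and −0.08. The median differences between ko and control in these steps were −0.03, −0.04 and −0.04. The 75th percentile itself, as log2 signal before scaling, was 10.03 to 10.22 on the ko arrays, against 9.79 to 10.05 on the control arrays, with control 62 the dimmest. The part of array brightness in the members' differences was not tested. Summed over members on the linear scale, the signal was 4976, 5060 and 4864 times the 75th percentile in ko samples, against 5485, 5860 and 4752 in controls, so the groups overlapped. In bulk tissue, fewer cells of a type and less RNA per cell cannot be told apart.

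The size of the shift depended on which control was left out. Without control 16 the member median was −0.18, 78 members were lower by value and 0 passed the adjusted threshold. In that setting 18 members had an unadjusted p under 0.05, all of them lower. The share of all genes at that p in the same setting is not given here, so the 18 cannot be read as a result about the members. Without control 62 the median was −0.04 with 63 members lower by value, and without control 15 it was −0.07 with 63 lower. Within slide 1 the median was −0.15 (77 of 80 members lower) and within slide 2 it was −0.10 (68 of 81 lower), each from a lone sample on 1 side and without a test.

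Among small-subunit genes, Rps19 differed most. Rps19 takes part in maturation of the small subunit and is mutated in human Diamond-Blackfan anaemia. Rps19 read 5.04, 5.13 and 5.07 in ko samples, against 5.38, 5.49 and 5.16 in controls. All ko samples were below all controls, though control 16 came close to them. The ko level was 0.834 of the control level, a difference of −0.26 (SE 0.10, 95% interval −0.51 to −0.02, limma, adjusted p = 0.607), which does not pass. Rps19 was below 0 under all 21 settings tried, between −0.37 and −0.09, and at −0.28 within slide 1 and −0.28 within slide 2. A second tested Rps19 probe had −0.07 (adjusted p = 0.957) with overlapping groups.

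Rps28 and Rps25 were also lower by value in the small subunit. Rps28, a protein of the small subunit's head, read 6.10, 6.22 and 6.22 in ko samples, against 6.39 and 6.40 in controls 15 and 62, with control 16 left out as a flagged spot. Its difference was −0.21 (SE 0.09, adjusted p = 0.645) on 5 arrays. Both controls lay above all ko samples, but the control that was low for most members is the missing one, and with the authors' deposited log2 values, which hold control 16, the difference was 0.040. Both other Rps28 probes were measured on every array and had −0.16 (adjusted p = 0.751) and −0.06 (adjusted p = 0.944), with overlapping groups. Rps25, known to be needed for some internal ribosome entry sites, read 5.80, 5.89 and 5.90 in ko samples, against 6.07, 6.17 and 5.90 in controls. The highest ko sample and control 16 were level, and the difference was −0.18 (adjusted p = 0.714).

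The common reference gene Rps18 had a small difference by its brightest probe. Rps18, in the head of the small subunit, read 7.45, 7.46 and 7.45 in ko samples, against 7.52, 7.65 and 7.45 in controls, a difference of −0.09 (adjusted p = 0.860). The ko samples agreed within 0.02, and control 62 was the sample set apart. A second tested Rps18 probe read 6.08, 6.20 and 6.15 in ko samples, against 6.30 and 6.33 in controls 15 and 62, with control 16 left out as a flagged spot (difference −0.17, adjusted p = 0.717). Both measured controls were above all ko samples. The mean of the Rps18 probes gave −0.32, a value that takes control 16 from the brighter probe alone. Rps2, at the mRNA entrance, was among the most variable small-subunit genes, with 7.34, 6.99 and 6.88 in ko samples and 7.12, 7.25 and 7.27 in controls (difference −0.14, adjusted p = 0.860). Here ko 53 was the highest of all arrays, unlike for most members.

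In the large subunit, Rpl35a and Rpl30 had differences close to that of Rps19. Rpl35a, also mutated in human Diamond-Blackfan anaemia, read 4.53, 4.67 and 4.68 in ko samples, against 5.02, 4.96 and 4.67 in controls. Controls 15 and 62 were above every ko sample and control 16 was among them, and the difference was −0.25 (SE 0.12, adjusted p = 0.657). Rpl30, which also binds selenocysteine insertion elements in mammals, read 4.42, 4.43 and 4.36 in ko samples, against 4.68, 4.72 and 4.45 in controls. The groups did not overlap, by a narrow margin at control 16, and the difference was −0.21 (SE 0.10, adjusted p = 0.656). Rpl28 read 5.27, 5.30 and 5.41 in ko samples, against 5.58, 5.56 and 5.37 in controls, with overlap at control 16 (difference −0.18, adjusted p = 0.709).

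Other large-subunit genes stood out for spread rather than difference. Rpl11, which binds Mdm2 when ribosome assembly is disturbed, read 6.47, 6.47 and 5.90 in ko samples, against 6.55, 6.63 and 6.42 in controls. The low value of ko 54 gave most of its difference of −0.25 (SE 0.17, adjusted p = 0.794). Rpl21 had the widest spread of all members, a pooled SD of 0.465, with 1.91, 0.73 and 1.497 in ko samples and 1.51, 1.80 and 1.25 in controls. Its ko samples spanned the controls on both sides, and its difference of −0.14 turned to 0.18 without ko 48. Rpl17 read 5.68, 5.87 and 5.80 in ko samples, against 5.997, 6.04 and 5.40 in controls (difference −0.03, adjusted p = 0.985), with control 16 lowest. Rpl13a, a common reference gene, read 5.88, 6.14 and 6.08 in ko samples, against 6.31 and 6.03 in controls 62 and 16, with control 15 left out as a flagged spot (difference −0.14, adjusted p = 0.878).

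Among members with positive values, Rpl4, at the wall of the exit tunnel, had 0.05 (adjusted p = 0.950). Rpl18 had 0.01 (adjusted p = 0.989) and Rpl7 had 0.01 (adjusted p = 0.995), both with overlapping groups. The signs of all these near-zero differences changed under other settings.

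The stalk proteins, which recruit elongation factors to the large subunit, were measured with 3 genes. Rplp0, the stalk base, read 2.20, 2.24 and 2.30 in ko samples, against 2.34, 2.49 and 2.37 in controls. The groups did not overlap, and the difference was −0.16 (SE 0.08, adjusted p = 0.709). The array carries Rplp0 also under its old name Arbp, outside the naming rule, and those probes had differences of −0.09 and −0.00 with overlapping groups. Both Arbp probes were brighter, with ko means of 6.82 and 4.85 and control means of 6.92 and 4.85. The separate groups of Rplp0 thus rest on the dimmest probe of this gene. Rplp1 and Rplp2, chosen after their values were seen, had −0.09 (adjusted p = 0.886) and −0.08 (adjusted p = 0.921). Rpl31 was the remaining member with all ko samples below all controls, also chosen after its values were seen. It read 0.30, 0.48 and 0.48 in ko samples, against 0.71, 0.52 and 0.49 in controls (difference −0.16, adjusted p = 0.780). The margin was narrow, at control 16. A second tested Rpl31 probe had −0.07 (limma, adjusted p = 0.930) with overlapping groups.

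Rpl22l1 had a difference of the opposite sign. It is the paralogue of the RNA-binding large-subunit protein Rpl22. Its brighter probe read 4.61, 4.73 and 4.65 in ko samples, against 4.48, 4.59 and 4.298 in controls. All ko samples were above all controls, the reverse of the other members with separate groups. The level in ko was 1.15-fold that in controls, a difference of 0.21 (SE 0.10, 95% interval −0.03 to 0.44, adjusted p = 0.688), which does not pass. It was above 0 under all 21 settings, between 0.13 and 0.62, and was 0.21 within slide 1 and 0.16 within slide 2. The value of 0.62 is the mean of the gene's probes, so it takes in the dim probe described below. The settings rework the same arrays and are no separate checks.

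A second Rpl22l1 probe was dim. It read −3.72, −4.06 and −4.17 in ko samples, against −5.21, −4.82 and −5.06 in controls, and was well above background on 3 ko and 2 of 3 control arrays. The probe thus entered the test only through the ko samples, where it is high, so its difference and p lend no support to a change. The groups did not overlap, and the measured means differed by 1.04 (SE 0.15, limma, adjusted p = 0.119). That misses the threshold, as did all other member probes: 0 of 130 tested probes passed, against 0.129% of all 25507 tested probes. The transcript read by either probe was not analysed here.

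**Figure D3:**
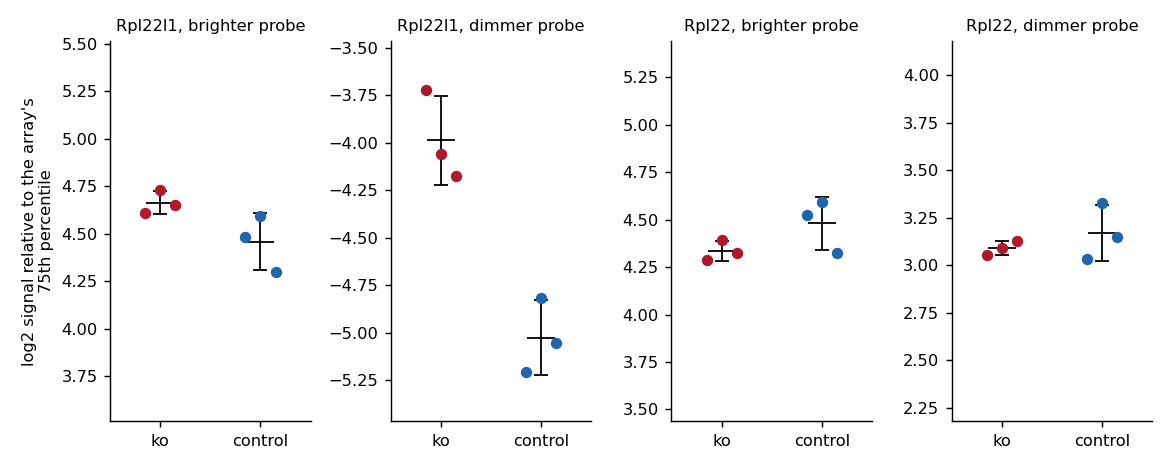
Signal on the log2 scale with the array's 75th percentile at 0 (y axis) for both probes of Rpl22l1 and both probes of Rpl22, 1 point per sample, ko left and control right in each panel. The brighter Rpl22l1 probe is higher in every ko sample than in any control, by a narrow margin (4.61 on ko 53, 4.59 on control 62). The dimmer Rpl22l1 probe entered the test only through the ko samples, where it is high, so its separate groups lend no support to a change. Both Rpl22 probes overlap between groups.

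Over the 81 members the median difference was −0.10 and 74 were lower by value. Rpl22, unlike Rpl22l1, was among those 74. Its brighter probe read 4.29, 4.39 and 4.33 in ko samples, against 4.53, 4.59 and 4.32 in controls, a difference of −0.15 (SE 0.10, adjusted p = 0.788). Controls 15 and 62 stood above the ko samples and control 16 stood among them. The second Rpl22 probe had −0.08 with overlapping groups. The ratio between paralogues was not tested.

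The other paralogues gave no separate groups. Rpl3l, the form of Rpl3 found in muscle, was near background (well above it in 2 of 3 ko samples) with −4.99, −5.45 and −4.90 in ko samples and −4.61, −4.66 and −5.07 in controls. It entered the test only through the controls. Its measured means differed by −0.33 (adjusted p = 0.741), and its groups overlapped. Its parent Rpl3, which shapes the peptidyl transferase centre, had −0.06 (adjusted p = 0.927). Rpl7l1 had −0.16 (adjusted p = 0.719) beside 0.01 for Rpl7. Rpl36al, a retrocopy of the X-linked Rpl36a, had 0.00 (adjusted p = 0.997), and Rpl36a had −0.10 (adjusted p = 0.872). Rps27l, a p53-inducible relative of Rps27, had 0.00 (adjusted p = 0.998), while Rps27 had −0.14 (adjusted p = 0.860). Rps19bp1, an Rps19-binding protein that also regulates the deacetylase Sirt1, read 3.09, 3.11 and 3.18 in ko samples, against 3.08, 3.102 and 3.03 in controls (difference 0.05, adjusted p = 0.919), with little spread in either group.

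Probes of the same gene gave the same sign for 23 of 39 genes with several tested probes. Of these 39 genes, 22 had all probes lower, 1 (Rpl22l1) had all higher and 16 were mixed. Rpl22l1 is counted with its dim probe, which entered the test only through the ko samples. Since most tested probes were lower by value, equal signs say little about agreement between probes of a gene. Over the 130 tested probes 105 were lower and 25 higher by value, with a median of −0.08. At an unadjusted p under 0.05, 2 probes were lower (4.07% of all probes) and 1 was higher (3.89% of all probes). Beside Rps19 and Rpl22l1, the third was a dim Rps24 probe, named after its values were seen, with −2.30, −2.30 and −2.25 in ko samples and −2.003, −2.04 and −2.18 in controls. The brightest Rps24 probe had −0.09, and a further one 0.05, so its probes did not give the same sign. The median range between probes of a gene was 0.0920.

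**Figure D4:**
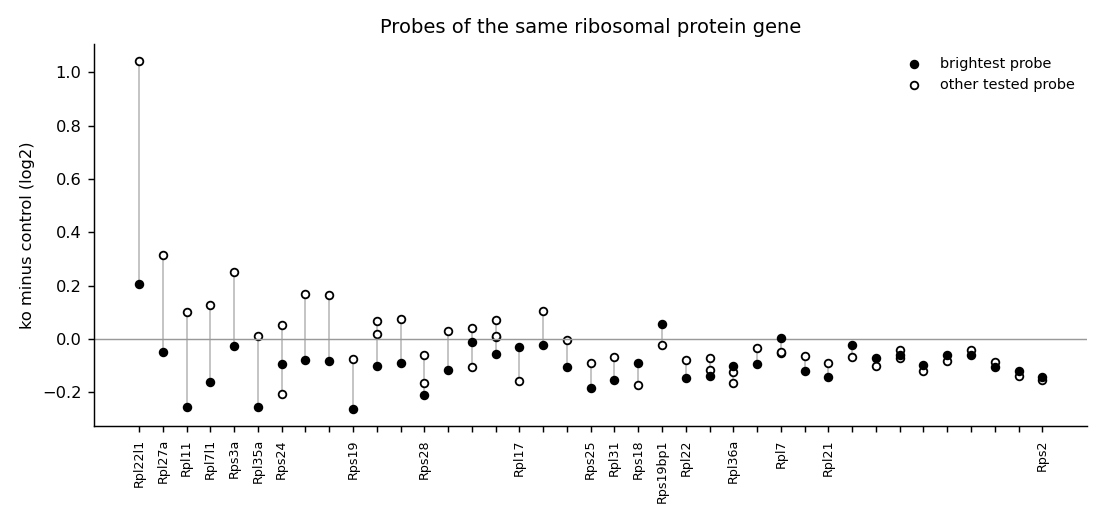
Difference of every tested probe, ko minus control on the log2 scale (y axis), for the 39 genes with several tested probes, filled points marking the brightest probe and names given for the genes described in the text. Most genes hold their probes within a narrow band below 0, and Rpl22l1 has the widest gap.

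The other wide gaps between probes of a gene were smaller than that of Rpl22l1. Rpl27a had −0.05 by its brightest probe and 0.32 by the other. For Rpl11 the values were −0.25 and 0.10, for Rpl35a −0.25 and 0.01, and for Rpl7l1 −0.16 and 0.13. Rps3a, now called Rps3a1, had −0.03 and 0.25, its second probe reading highest on ko 54. A further 42 genes had a single tested probe, and 5 dim probes of Rpl35a, Rps18, Rps19, Rps2 and Rps6 were not tested.

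The spread between arrays was below that over all genes and above that of other genes of like brightness. The median pooled SD of members was 0.119, with quartiles of 0.105 and 0.139, against 0.131 over all genes and 0.0964 over other genes of like brightness. Much of it was shared by the members: set against the member median of each array, the median pooled SD was 0.0588. On that scale differences ran from −0.23 to 0.31, 69 of 81 lay within 0.1 of the member median, Rpl22l1 stood at 0.31 and Rps19 at −0.16. These relative values are a description and were not tested.

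Ribosomal proteins whose names fall outside the rule gave small values of the same sign. Fau, a ubiquitin-like fusion with Rps30, had −0.11. Rack1, a scaffold on the small subunit, had −0.05, and Rpsa, a small-subunit protein, had −0.03. These 3 missed the threshold in limma, with 0 at an unadjusted p under 0.05 and overlapping groups. Rpl34, listed under a clone name, had −0.03 and −0.07 by its probes. Rps4l, also under a clone name and named after its values were seen, had −0.22 (limma, unadjusted p = 0.0395, adjusted p = 0.6035). For Rps4l every ko sample lay below every control. Over all genes, 4.38% were lower at an unadjusted p under 0.05 and 7.25% had this order.

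The rest of the translation machinery showed no difference past the threshold, with 0 genes called in each list by limma. Mitochondrial ribosomal proteins had a median of −0.01 with 34 of 78 genes higher and 44 lower by value. By array their medians were −0.05, 0.01 and 0.03 in ko samples, against 0.04, 0.07 and −0.11 in controls. Over the controls this is the order seen for the members, at a median level of only 2.31. On control 16, 66 of 77 measured genes were below their own mean. Of the 78 genes, 2 were lower at an unadjusted p under 0.05 (4.38% of all genes). They were Mrpl16 with −0.39 (adjusted p = 0.520) and Mrps12 with −0.34 (adjusted p = 0.610). Initiation factors had a median of −0.04, with 12 of 32 higher and 20 lower by value and 0 at an unadjusted p under 0.05. Elongation factors and other mRNAs with a pyrimidine tract had −0.02, with 6 of 12 higher and 0 at that p. The elongation factor Eef1d had −0.17 (adjusted p = 0.649), with every ko sample below every control.

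Ribosome assembly factors had a median of −0.01, with 15 of 32 higher and 17 lower by value. Of these 1 was higher at an unadjusted p under 0.05 (3.89% of all genes). It was Ltv1, an assembly factor of the small subunit, with −2.68, −2.80 and −2.77 in ko samples, against −3.44, −2.97 and −3.39 in controls. Every ko sample lay above every control, at a difference of 0.52 (SE 0.14, limma, adjusted p = 0.397). The S6 kinase and mTOR list had a median of −0.01 over 24 genes, with 2 lower at an unadjusted p under 0.05 (4.38% of all genes). Rps6ka4 was among them with −0.24 (adjusted p = 0.516). Of 13 tested genes of the p53 list 1 was higher at that p, Trp53 itself with 0.19 (adjusted p = 0.591).

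Striatal markers were high and low on much the same arrays as the ribosomal protein genes. The 10 striatal markers had medians of −0.40, −0.13 and −0.19 on the ko arrays, against 0.47, 0.46 and −0.27 on the control arrays. Of these 9 were lower in ko by value, 1 at an unadjusted p under 0.05, and 1 had no overlap, with 0 past the adjusted threshold. Over all genes, 4.38% were lower at that p and 7.25% had every ko sample below every control. Their summed signal was 57.7 to 68.8 times the 75th percentile in ko samples, against 58.9 to 105 in controls. Controls 15 and 62 were thus high in both lists and control 16 was low in both. The part of tissue dissection in the members' values was not tested. Astrocyte markers had medians of −0.15, −0.04 and −0.08 on the ko arrays, against 0.21, 0.04 and −0.04 on the control arrays, highest on control 15. Of 10 astrocyte genes 9 were lower in ko by value, 2 of them at an unadjusted p under 0.05 (4.38% of all genes). For 3 there was no overlap, ko below (7.25% of all genes), and 0 were past the adjusted threshold. Their summed signal was 228 to 243 in ko samples, against 245 to 291 in controls, so these groups did not overlap. Their part in the members' values was not tested either. Microglial markers followed another order, with −0.23, −0.26 and −0.19 on the ko arrays and 0.15, 0.10 and 0.44 on the control arrays. Of 14 microglial genes 12 were lower at an unadjusted p under 0.05 (4.38% of all genes). For 11 there was no overlap, ko below (7.25% of all genes), and 0 were past the adjusted threshold. Their summed signal was 61.0 to 64.3 in ko samples, against 75.3 to 96.4 in controls, and control 16, lowest for most ribosomal protein genes, was the highest.

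**Figure D5:**
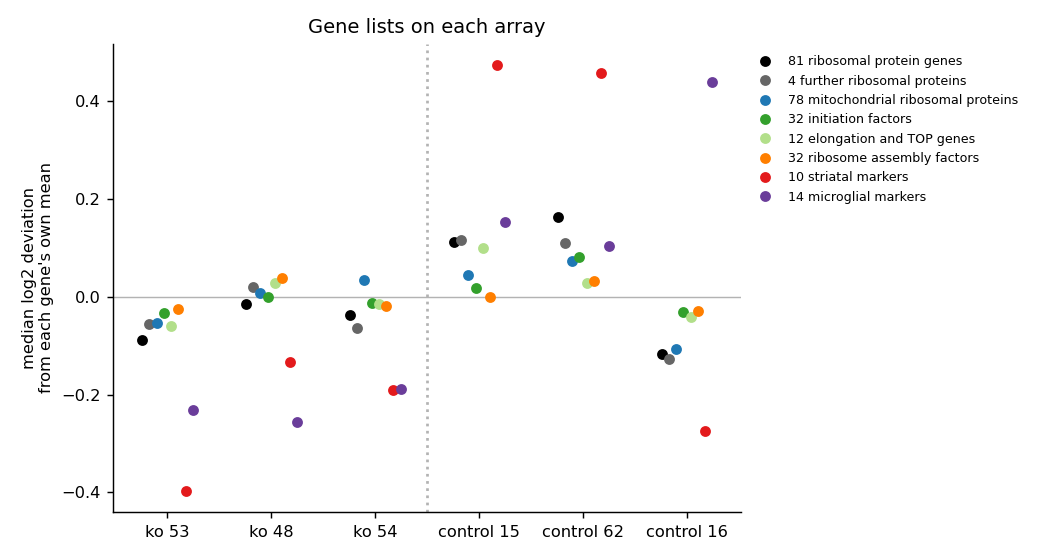
Median deviation from each gene's own mean (y axis, log2) on the 3 ko and the 3 control arrays for the ribosomal protein genes and other lists, 1 point per list and array. Striatal markers and ribosomal protein genes are both high on controls 15 and 62 and low on control 16, and microglial markers are highest on control 16. Mitochondrial ribosomal protein genes follow the order of the ribosomal protein genes over the controls.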

How the data were processed

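Cy3-labelled amplified RNA was hybridised to 1-colour Agilent arrays, per the labels' protocols. Per the file headers, Agilent Feature Extraction 9.1.3.1 made the processed signal, an intensity already background-subtracted. The mean signal and local background are uncorrected intensity values, per the file headers. The authors also deposited log2 values, which rank as the processed signal, with a median of 6.75 in each column. Their sorted columns differ by at most 0.000703 at any rank, as quantile-normalized columns do, and their centring is not stated. A genome build was not given in the sources used here.

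From 45018 spots per array, 1639 controls were left out, with 120 outlier spot values, and spots were averaged to 41174 probes. Log2 of the processed signal minus the array's 75th percentile was tested with limma 3.58.1 (lmFit, eBayes, two-sided) in R 4.3.3 with Benjamini-Hochberg adjustment over 25507 probes at 0.05. The test took probes that at least 1 group had well above background on each of its 3 arrays. Members were matched by the array's gene names, and other probes were named through RefSeq tables of GRCm38.p6 by accession (22951), symbol (6659) or synonym (3109), while 8455 kept the array's name. Genes of like brightness lay between 3.096 and 7.08, the 10th and 90th percentiles of the members. They were not matched within that range, and their median level was 4.06, against 5.75 for members. The procedure was tested on simulated data. Tables were read with data.table (version 1.17.8). Figures used matplotlib 3.10.9 in Python 3.11.15.

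Members and lists were chosen with earlier results of these data known. Named genes are the marker genes Rpl13a, Rps18 and Rplp0, the members of lowest p (up to 10 higher and 10 lower), the 6 of widest spread, paralogues with their parents, the genes whose probes differ most, and up to 3 genes of lowest p in a list. Genes named outside this rule are said to be so, and some genes the rule covers are not reported here. Alternatives changed scaling, background correction, the filter on dim probes, variance model, array weights, slide block, probe summary, the authors' values and the arrays left out. Scaling to the members' median was added after seeing the data.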

Additional observations from a re-analysis of the deposited data

How the results depend on the processing

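No paired analysis was possible because the groups share no replicate numbers. No member gene passed the adjusted threshold under any tested setting, and no probe did except the dim Rpl22l1 probe with no scaling (1 probe). The median difference over ribosomal protein genes stayed below 0 except at 0.0024 when scaled to the members' own median and with no scaling, where it was 0.079 in all, 0.079 for the small and 0.077 for the large subunit. Leaving out 1 array gave −0.18 to −0.041 for all members, −0.18 to −0.045 for the small subunit and −0.19 to −0.039 for the large. Members at an unadjusted p under 0.05 numbered 2 with median scaling, array weights or the slide block, and 3 with quantile normalization. There were 5 with a variance trend, 4 with the authors' values, 0 with normexp or no filter, and 0 to 18 with 1 array left out. The shares of all genes at that p under these settings are not given here, so these counts are no result about the members. The number of all genes called was 35 with median scaling, 0 with normexp, 2 with no filter, 10 with the slide block and 2 to 44 with 1 array left out. The members' median spread was 0.345 with normexp, 0.0490 within slide 1, 0.190 within slide 2 and 0.0588 scaled to the members' median. The causes were not tested.

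Differences of named members, mostly near 0, changed sign in 60 of 557 values. With no scaling, which shifts all genes by 0.17, Rpl7l1 had 0.013, Rpl27a 0.12, Rpl13a 0.090, Rps18 0.085, Rplp0 0.018, Rps2 0.031, Rpl22 0.029, Rps27 0.035, Rpl3 0.12, Rpl17 0.15, Rpl21 0.032, Rpl36a 0.074 and Rps3a 0.15. With normexp Rps19bp1 had −0.042, Rpl36al −0.055, Rpl3l 0.37, Rps27l −0.059, Rpl4 −0.022, Rpl18 −0.052 and Rpl7 −0.090. Scaled to the members Rpl27a had 0.049, Rps18 0.0093, Rpl3 0.040, Rpl17 0.070 and Rps3a 0.072. With median scaling Rpl36al had −0.034, Rps27l −0.034, Rpl18 −0.026 and Rpl7 −0.032. With the slide block these had −0.033, −0.048, −0.0061 and −0.012. Array weights gave Rps27l −0.0051 and Rpl7 −0.0042, and quantile normalization gave Rpl17 0.022 and Rps3a 0.0046. The authors' values gave Rpl17 0.025, Rps3a 0.0014 and Rps28 0.040. Probe means gave Rpl27a 0.13, Rpl7 −0.032 and Rps3a 0.11. With 1 array left out, ranges were −0.11 to 0.026 for Rpl27a, −0.24 to 0.086 for Rpl17, −0.090 to 0.036 for Rps3a, −0.088 to 0.056 for Rpl36al, −0.10 to 0.059 for Rps27l, −0.063 to 0.059 for Rpl18, −0.083 to 0.056 for Rpl7, −0.0010 to 0.14 for Rpl4 and −0.41 to 0.18 for Rpl21. The cause was not tested.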
